A study of Mus musculus with 18 samples.

Results

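The clock repressors are the genes whose proteins close the negative limb of the circadian clock, and 10 of them were followed here in mouse lung: Per1, Per2 and Per3, Cry1 and Cry2, Nr1d1 and Nr1d2 (which encode REV-ERBα and REV-ERBβ), Bhlhe40 and Bhlhe41, and Ciart. They were chosen by name, through the RefSeq accession that each probe carries, and they take 11 of the 55681 probes on the array, or 10 of the 20660 gene symbols that the probes could be given. Bhlhe41 has a pair of probes and each of the others has 1.

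In the clock of each cell, BMAL1 (encoded by Arntl) pairs with CLOCK or NPAS2 and switches on genes that carry the short DNA element called an E-box, the Per, Cry, Nr1d, Bhlhe40 and Ciart genes among them. PER and CRY proteins then return to the nucleus and block that pair, while the REV-ERB proteins compete with the ROR receptors for another element and hold down transcription of Arntl itself. BHLHE40 and BHLHE41 (also called DEC1 and DEC2) occupy E-boxes without activating them, and CIART (also called CHRONO) represses the BMAL1 pair. In the lung, as in other organs, these transcripts swing over the day.

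The RNA came from the lungs of 18 adult male MutaMouse animals, a transgenic strain on a BALB/C and DBA/2 background that carries bacterial lacZ as a mutation reporter. At about 12 weeks of age they were kept singly under 12 h of light and 12 h of dark and were gavaged daily for 28 days. The 5 vehicle mice received olive oil, and the exposed mice received a mixture of the polycyclic aromatic hydrocarbons benzo(a)pyrene, benz(a)anthracene, benzo(b)fluoranthene and chrysene in the same oil, at 12.5 (low dose, 4 mice), 25 (medium dose, 5 mice) or 50 (high dose, 4 mice) mg BaP equivalents/kg-bw/day. Lungs were taken 72 h after the last dose, and the hour of the day at which this was done is not given in the sources used here. Since these transcripts swing over the day, a difference in that hour between groups could not be told apart from dose. RNA was made from random sections of lung tissue, for which the study's methods name the right lobe. Cell types were not separated, so that fewer cells of a type and less RNA per cell cannot be told apart. Each mouse has its own array, on which its RNA (Cy5) was hybridized with Universal Mouse Reference RNA (Cy3), a commercial pool from mouse cell lines, and every value below is the log2 ratio of lung to reference RNA after loess normalization unless another scale is named. A ratio of 1 probe is never set against that of another probe as a level.

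Between 51.5% and 61.1% of probes were well above background per array. The defining markers of alveolar type 1 and type 2, club, ciliated and endothelial cells that were on the array were well above background in all 4 groups. Cardiomyocyte and adipocyte markers varied widely from mouse to mouse in every group, the mean log2 ratio of the 4 cardiomyocyte genes running from 0.51 to 3.00 in vehicle mice and from 0.59 to 2.82 at the high dose. Each of the 3 slides held all 4 groups. Within a slide the groups always took the same positions, from vehicle to high dose, so position on the slide and dose cannot be told apart.

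Promoter windows of the clock repressors are shown first, because clock proteins are known to act on these genes through short elements such as the E-box. RefSeq windows (GRCm38.p6) were matched for 8 of the 10 genes, Per2 and Bhlhe40 having none. Their 9 windows, since Per1 has 2, were searched on both strands over the 250 bases before the annotated start for the E-box CACGTG, the E′-box CACGTT, the D-box TTATGNAA, the REV-ERB and ROR half-site AGGTCA and the cAMP response element TGACGTCA. Of 32851 windows of the same length, 6.02% held the E-box, 3.85% the E′-box, 3.07% the D-box, 14% the half-site and 1.55% the cAMP response element. Among the 9 windows of the clock repressors, 4 held the E-box (Per1, Cry1, Bhlhe41 and Ciart), 3 the E′-box (Cry1, Cry2 and Nr1d1), 2 the D-box (Per1 and Per3), 2 the half-site (Per1 and Nr1d2) and 0 the cAMP response element. The windows below are printed as examples of an E-box with a D-box (Per1), of D-boxes (Per3), of an E′-box (Nr1d1) and of several E-boxes (Ciart), and capitals mark E-box, E′-box and D-box matches.
Per1, chr11:69098699-69098948, plus strand: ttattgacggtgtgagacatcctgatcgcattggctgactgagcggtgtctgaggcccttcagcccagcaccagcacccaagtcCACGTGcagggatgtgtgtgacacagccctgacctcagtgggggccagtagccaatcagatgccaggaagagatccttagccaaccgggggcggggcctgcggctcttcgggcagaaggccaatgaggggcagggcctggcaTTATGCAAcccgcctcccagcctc
Per3, chr4:151044666-151044915, minus strand: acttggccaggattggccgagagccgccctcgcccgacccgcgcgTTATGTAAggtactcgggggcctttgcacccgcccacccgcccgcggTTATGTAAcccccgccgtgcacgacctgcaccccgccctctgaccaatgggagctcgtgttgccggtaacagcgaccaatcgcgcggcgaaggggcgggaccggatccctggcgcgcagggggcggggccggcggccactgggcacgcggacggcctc
Nr1d1, chr11:98775378-98775627, minus strand: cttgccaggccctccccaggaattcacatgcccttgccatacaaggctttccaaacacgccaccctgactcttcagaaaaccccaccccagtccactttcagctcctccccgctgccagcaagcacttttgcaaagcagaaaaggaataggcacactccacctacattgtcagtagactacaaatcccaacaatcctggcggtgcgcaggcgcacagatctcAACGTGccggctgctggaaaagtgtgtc
Ciart, chr3:95882229-95882478, minus strand: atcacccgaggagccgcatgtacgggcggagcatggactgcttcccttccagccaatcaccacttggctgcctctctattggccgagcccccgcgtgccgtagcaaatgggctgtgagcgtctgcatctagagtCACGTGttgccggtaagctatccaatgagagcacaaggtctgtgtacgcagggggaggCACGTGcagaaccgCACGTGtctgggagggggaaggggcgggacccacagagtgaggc
The Per1 window has an E-box that begins at base -166 from the start and a D-box at -24, whereas that of Per3 has D-boxes at -205 and -158 and no E-box. The Nr1d1 window has 1 E′-box, at -28 and read on the reverse strand, and that of Ciart has 3 E-boxes, at -116, -58 and -44. No match of one motif overlapped that of another in these windows. A match is a description of these letters only, and no binding was measured.

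**Figure D1:**
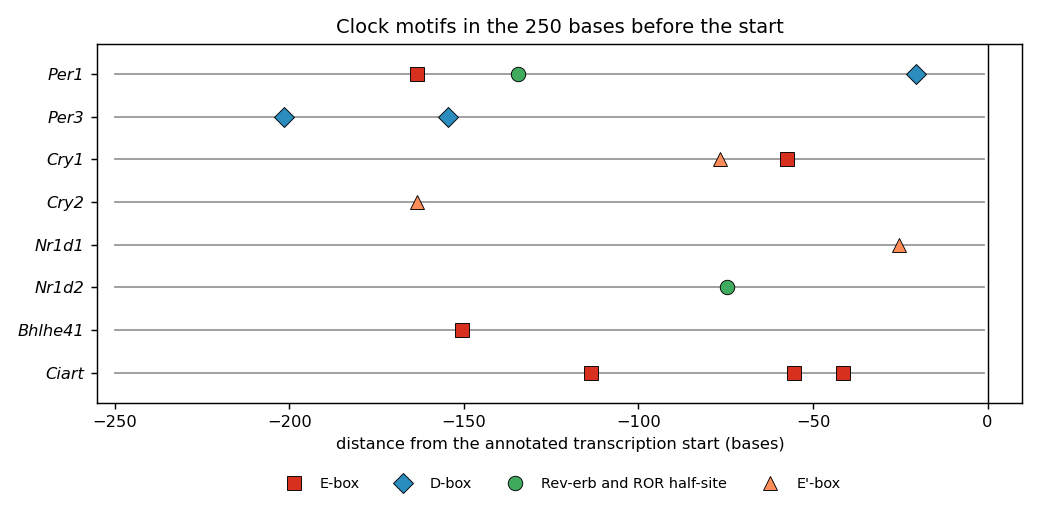
Positions of clock motifs in the 250 bases before the annotated transcription start of the 8 clock repressors with a RefSeq window. The x axis gives the distance from the start in bases, grey lines are the windows and symbols mark the middle of each match. Ciart has the most E-boxes, 3, and Per3 has 2 D-boxes and no E-box.

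The question put to these genes was whether repeated oral exposure to the mixture was accompanied by altered clock repressor transcripts, and at which dose. Cry1 could not be followed, since its probe was not well above background on any of the 18 arrays in lung RNA, so no fold is given for it and 9 genes remain. Ciart was well above background on 17 of them, missing in 1 low-dose mouse, and the other 8 on all. At each dose the fitted difference from vehicle was above 0 for 9 of these 9 genes. A gene is said to have risen where limma's adjusted p over all 55681 probes was 0.05 or less and the fold at least 1.5. By this rule 2 of the 9 rose at the low dose (Per3 and Nr1d2), where 0.0647% of all probes were called higher. At the medium dose 5 rose (Per1, Per2, Per3, Nr1d1 and Nr1d2), against 0.278% of all probes. At the high dose 4 rose (Per2, Per3, Nr1d1 and Nr1d2), against 0.399% of all probes. The median log2 fold change of the 9 genes was 0.50, 0.84 and 0.58 from low to high dose, and over all 20660 genes it was 0.01, 0.02 and 0.02. The 3 comparisons share their 5 vehicle mice and are therefore not independent.

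The Period genes encode the scaffold proteins that carry cryptochromes into the nucleus. In the vehicle mice (1 to 5) the log2 ratio of Per2 was 0.68, 1.02, 0.53, 0.78 and 0.61. In the low-dose mice (numbered 6, 7, 9 and 10) it was 1.79, 0.73, 1.65 and 1.52, and in the medium-dose mice (11 to 15) 1.38, 1.89, 1.47, 1.52 and 1.60. In the high-dose mice (16, 17, 18 and 20) it was 2.15, 2.02, 1.79 and 1.92. Every medium- and high-dose mouse thus lay above every vehicle mouse, and at the low dose mouse 7 alone lay within the vehicle range. Per2 was 2.38-fold higher than in vehicle at the high dose (log2 fold change 1.25, SE 0.16, limma adjusted p = 7.3e-05) and 1.80-fold higher in medium-dose mice (0.85, SE 0.15, adjusted p = 0.0024). At the low dose its value of 0.70 (SE 0.16, limma adjusted p = 0.088) was not called, but without mouse 7 it was 0.93 with an adjusted p of 0.00098. The order of the group means was vehicle (0.72 ± 0.19, SD, n = 5), low (1.42 ± 0.48, n = 4), medium (1.57 ± 0.20, n = 5) and high (1.97 ± 0.16, n = 4), and each neighbouring pair in this order overlapped.

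Per3, which is the least needed of the 3 for rhythm in the central clock, was called at every dose. Its log2 ratio was 0.28, 0.86, 0.51, 0.61 and 0.80 in vehicle mice and 1.74, 1.13, 1.53 and 1.35 at the low dose. It was 1.34, 1.89, 1.45, 1.35 and 1.60 at the medium dose and 1.82, 1.77, 1.33 and 1.66 in high-dose mice. No exposed mouse of the 13 fell as low as the highest vehicle mouse, whereas the 3 dose groups overlapped one another throughout. Its log2 fold change was 0.82 (SE 0.14, limma adjusted p = 0.014), 0.91 (SE 0.13, adjusted p = 0.00039) and 1.03 (SE 0.14, adjusted p = 0.00014) from low to high. The low-dose call was lost without mouse 6 (adjusted p = 0.067) or mouse 9 (adjusted p = 0.060), the value itself staying at 0.72 and 0.79.

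Per1, which is known to respond within a short time to cAMP and glucocorticoid signals, followed another course over dose. Its vehicle values were -0.04, 0.56, -0.03, 0.64 and 0.55, and those at the low dose were 1.14, 0.77, 1.13 and 0.32. The medium-dose mice gave 1.17, 1.29, 1.04, 1.27 and 1.14, and the high-dose mice 0.68, 0.85, 0.63 and 1.1. The medium-dose mice stood clear of all vehicle mice, and 1 low-dose and 1 high-dose mouse did not. Per1 was 1.79-fold higher at the medium dose (log2 fold change 0.84, SE 0.15, limma adjusted p = 0.0029). At the low and high dose it was 0.50 (SE 0.16, adjusted p = 0.33) and 0.48 (SE 0.16, adjusted p = 0.11), neither of which was called. The highest group mean was that of the medium dose (1.18 ± 0.10, SD, n = 5), followed by low (0.84 ± 0.39, n = 4), high (0.81 ± 0.21, n = 4) and vehicle (0.34 ± 0.34, n = 5), and every neighbouring pair in this order overlapped.

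**Figure D2:**
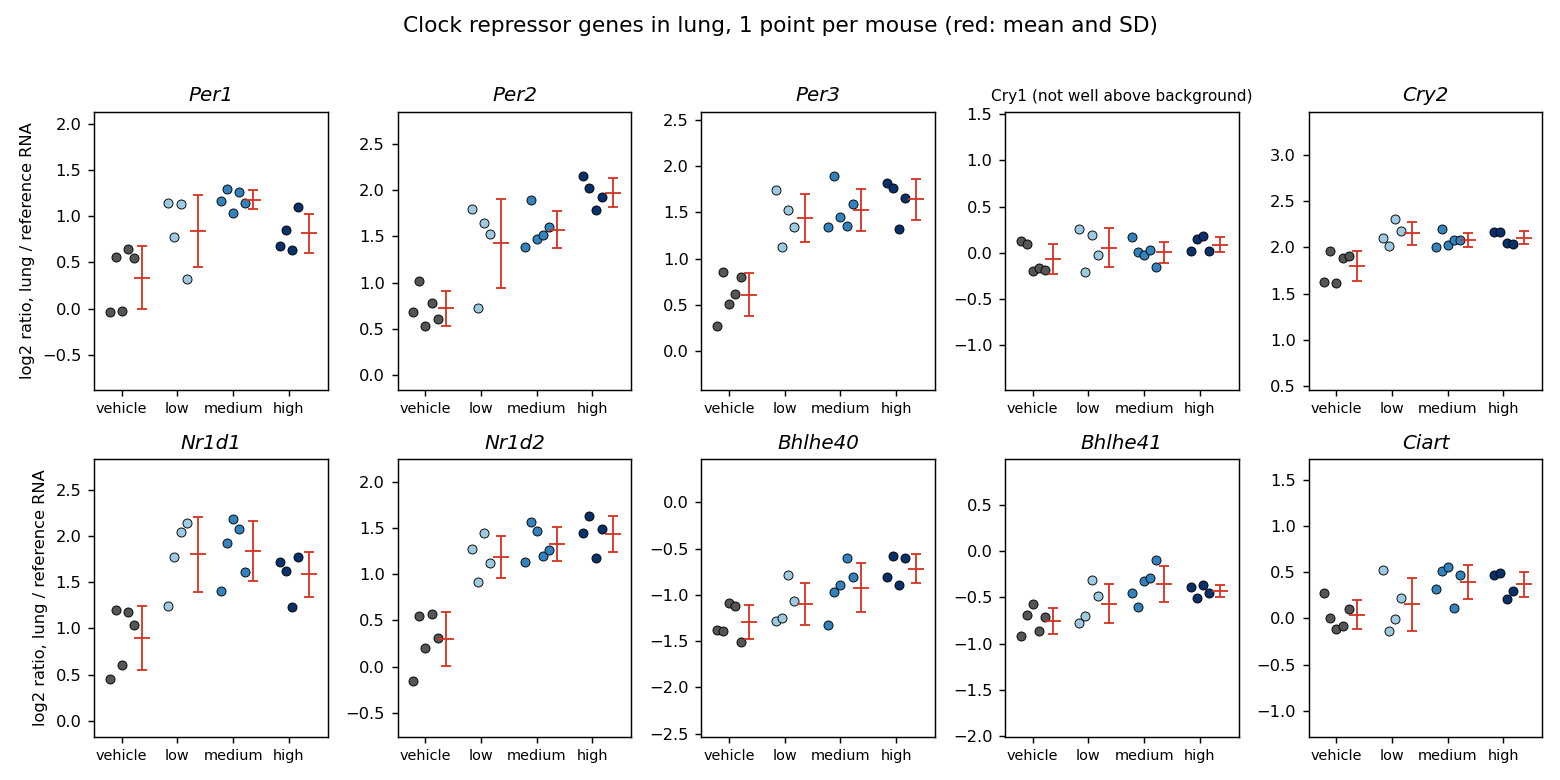
Log2 ratio of lung to reference RNA (y axis, spanning the same width in each panel) for the 10 clock repressors by group (x axis), 1 point per mouse, with the mean and SD in red. Per3, Cry2, Nr1d1 and Nr1d2 show all 13 exposed mice above all 5 vehicle mice, against 0.451% of all probes. Cry1 was not well above background on any array.

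The cryptochromes are the proteins that directly block the BMAL1 pair. Cry2 gave 1.62, 1.95, 1.61, 1.88 and 1.91 in vehicle mice and 2.10, 2.01, 2.31 and 2.18 at the low dose. It gave 2.00, 2.19, 2.02, 2.08 and 2.08 at the medium dose and 2.17, 2.16, 2.05 and 2.04 in high-dose mice. The shift was small, but all 13 exposed mice lay above the highest vehicle mouse, a separation seen for 0.451% of all probes. The log2 fold change of Cry2 was 0.35 (SE 0.09, limma adjusted p = 0.12), 0.28 (SE 0.08, adjusted p = 0.058) and 0.31 (SE 0.09, adjusted p = 0.042) from low to high dose. The high dose alone passed the adjusted p, at 1.24-fold, and no dose reached the fold limit. The group means ran from vehicle (1.80 ± 0.17, SD, n = 5) to medium (2.08 ± 0.07, n = 5), high (2.10 ± 0.07, n = 4) and low (2.15 ± 0.12, n = 4), and the 3 dose groups overlapped.

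The REV-ERB genes encode nuclear receptors that bind heme and recruit the NCoR corepressor. Nr1d2 gave the clearest separation of the family. Its log2 ratio was -0.15, 0.55, 0.21, 0.57 and 0.31 in vehicle mice and 1.27, 0.92, 1.45 and 1.12 at the low dose. It was 1.13, 1.56, 1.47, 1.20 and 1.26 at the medium dose and 1.45, 1.63, 1.17 and 1.49 in high-dose mice. The lowest exposed mouse, low-dose mouse 7, still lay above the highest vehicle mouse. Nr1d2 rose 1.86-fold with the low dose (log2 fold change 0.89, SE 0.14, limma adjusted p = 0.0055), 2.04-fold with the medium (1.03, SE 0.13, adjusted p = 0.00011) and 2.20-fold with the high (1.14, SE 0.14, adjusted p = 4.2e-05). The means followed the dose, with vehicle at 0.30 ± 0.29 (SD, n = 5), low at 1.19 ± 0.23 (n = 4), medium at 1.33 ± 0.18 (n = 5) and high at 1.44 ± 0.19 (n = 4), but the 3 dose groups overlapped one another.

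Nr1d1 had the same separation from vehicle without that order. Its vehicle values were 0.45, 1.20, 0.60, 1.18 and 1.03, and its low-dose values 1.24, 1.77, 2.04 and 2.14. The medium-dose mice gave 1.41, 1.92, 2.19, 2.07 and 1.61 and the high-dose mice 1.71, 1.62, 1.23 and 1.77. The vehicle mice spread over more than the distance between their highest value and the lowest exposed one. Nr1d1 was 1.93-fold higher at the medium dose (log2 fold change 0.95, SE 0.18, limma adjusted p = 0.0045) and 1.62-fold at the high dose (0.69, SE 0.19, adjusted p = 0.042). At the low dose the value was 0.91 (SE 0.19, adjusted p = 0.056), just past the limit. The high-dose call of Nr1d1 was the least secure of the family, being lost without vehicle mouse 1, 3 or 5, low-dose mouse 7, medium-dose mouse 12 or high-dose mouse 16, 17 or 20, with log2 fold changes of 0.58 to 0.73 and limma adjusted p-values of 0.051 to 0.13. The low-dose value was called without low-dose mouse 6 (1.09, adjusted p = 0.021) or medium-dose mouse 11 (0.91, adjusted p = 0.048).

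The vehicle mice were not alike. Mice 1 and 3 gave the lowest pair of values for Per1, Per3, Cry2, Nr1d1 and Nr1d2, though they stood on different slides.

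BHLHE40 and BHLHE41 are helix-loop-helix repressors, and Bhlhe40 is also known to respond to hypoxia and cytokines. The log2 ratio of Bhlhe40 was -1.38, -1.39, -1.09, -1.12 and -1.51 in vehicle mice and -1.28, -1.25, -0.79 and -1.07 at the low dose. At the medium dose it was -1.33, -0.97, -0.89, -0.60 and -0.81, and at the high dose -0.80, -0.58, -0.90 and -0.60. All high-dose mice lay above all vehicle mice, as did 2 of 4 low-dose and 4 of 5 medium-dose mice, and the others lay within the vehicle range. The log2 fold change was 0.20 (SE 0.13, limma adjusted p = 0.76), 0.38 (SE 0.12, adjusted p = 0.10) and 0.58 (SE 0.13, adjusted p = 0.012) from low to high. The high-dose value passed the adjusted p but at 1.49-fold stayed just under the fold limit, which it crossed without vehicle mouse 3 or 4 or high-dose mouse 16 or 18 (0.61 to 0.64).

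Bhlhe41 was read by a pair of probes, of which the brighter stands for the gene. Its mean was -0.75 ± 0.14 (SD, n = 5) in vehicle, -0.57 ± 0.21 (n = 4) in low-dose, -0.35 ± 0.19 (n = 5) in medium-dose and -0.43 ± 0.06 (n = 4) in high-dose mice. The change in log2 units was 0.18 (limma adjusted p = 0.71), 0.40 (adjusted p = 0.027) and 0.32 (adjusted p = 0.098), and the other probe gave 0.23, 0.33 and 0.39 in the same order. Both probes thus lay above vehicle at each dose, and neither reached 1.5-fold.

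Ciart was read from a dim probe. Its mean was 0.04 ± 0.16 (SD, n = 5) in vehicle, 0.15 ± 0.29 (n = 4) in low-dose, 0.39 ± 0.18 (n = 5) in medium-dose and 0.37 ± 0.14 (n = 4) in high-dose mice. The log2 fold changes of 0.11, 0.36 and 0.33 (limma adjusted p = 0.89, 0.091 and 0.15) were not called, and each dose group overlapped the vehicle mice.

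**Figure D3:**
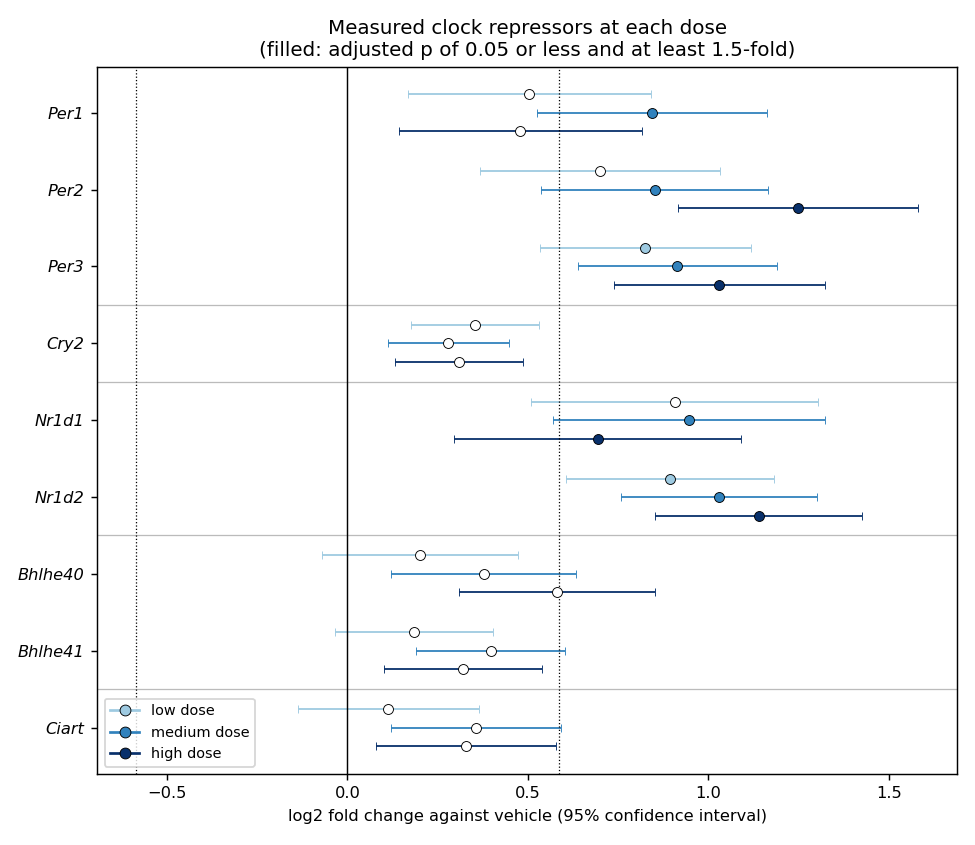
Log2 fold change against vehicle (x axis) with its 95% confidence interval from limma for the 9 measured clock repressors, in 1 row per gene and 1 colour per dose. Filled points passed both limits, and the dotted lines mark 1.5-fold. The values lie to the right of 0 in each row, and the highest is Per2 at the high dose, 1.25.

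Counted by mouse, 4 of the 9 genes had every low-dose mouse above every vehicle mouse, where 1.36% of all probes did so. The count was 6 at the medium dose, against 2.31% of probes, and 7 at the high dose, against 3.78%. Per3, Cry2, Nr1d1 and Nr1d2 had all 13 exposed mice above all 5 vehicle mice, against 0.451% of all probes. Within slides, the difference of dose from vehicle was above 0 in 27 of 27 pairs of gene and slide at the medium dose, 27 of 27 at the high and 26 of 27 at the low dose, the exception being Per1 on 1 slide (-0.23). These pairs are not replicates, since the 9 genes were read from the same mice that gave the fold changes. Each slide held only 1 or 2 mice of a group, and the share of all probes with such a pattern was not taken. On the 3 slides Per2 was higher at the high dose by 1.24, 1.13 and 1.31 and Nr1d2 by 1.34, 0.78 and 1.18. In the reference channel alone, where no difference between groups belongs to the lung, the 9 genes and Arntl differed between dose groups and vehicle by -0.14 to 0.09 on the log2 scale. The lowest of these was Per2 at the high dose, beside its log2 fold change of 1.25, and the highest was Per1 at the medium dose. A lower reference signal raises the ratio of lung to reference, and its part in the fold changes was not tested.

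Between the high and the low dose, 0 of the 9 genes were called by limma, with 0.0449% of all probes called in either direction. At an unadjusted p of 0.05, limma gave 2 genes, Per2 (log2 difference 0.55, SE 0.17, 95% confidence interval 0.20 to 0.90, adjusted p = 0.48) and Bhlhe40 (0.38, SE 0.14, interval 0.09 to 0.66, adjusted p = 0.59). For Per1 the interval was -0.38 to 0.33, for Per3 -0.10 to 0.51, for Nr1d1 -0.63 to 0.21 and for Nr1d2 -0.06 to 0.55. A 4-fold difference in dose between these groups therefore went with differences in the Per and Rev-erb transcripts that these 8 mice bound but do not separate from 0, Per2 apart at the unadjusted level.

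The normalization sets how many of these calls stand. With each array centred on its median in place of loess, the 9 fold changes kept their sign, while their sizes moved by differing amounts. At the high dose Per2 stood at 1.27 (1.25 with loess), Nr1d2 at 1.23 (1.14), Per3 at 1.04 (1.03) and Nr1d1 at 0.84 (0.69). The median SD within groups over the 9 measured clock repressors was, however, 0.37 in place of 0.23. By limma 0 calls were left for the low dose, 0 for the medium and 2 for the high (Per2, adjusted p = 0.018, and Nr1d2, adjusted p = 0.035).

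Members of 1 family were next compared in the size of their change within the same mice. In 15 differences between measured paralogs over the 3 doses, adjusted together with 3 of the unread Cry1, none passed an adjusted p of 0.05. At the high dose Per1 changed by 0.77 less than Per2 (log2 scale, two-sided exact permutation p = 0.0079, the smallest that 4 mice against 5 allow, adjusted p = 0.095). Per1 also changed by 0.55 less than Per3, and Nr1d1 by 0.45 less than Nr1d2, each with an exact permutation p of 0.016 and an adjusted p of 0.095. Per2 and Per3 differed by 0.22 (exact permutation p = 0.10, adjusted p = 0.31) and Bhlhe40 and Bhlhe41 by 0.26 (exact permutation p = 0.10, adjusted p = 0.31). At the medium dose the same differences lay between -0.08 and -0.01. With the scanner software's own ratios the gap of Per1 to Per2 at the high dose was -0.98 and that of Nr1d1 to Nr1d2 -0.55, both with an adjusted p of 0.048.

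Other genes of the clock were read from lists of known activators, D-box factors, output genes and cofactors. Of 5 activators, Arntl, the target of REV-ERB repression, gave 0.61, 0.14, 0.07, -0.31 and 0.28 in vehicle mice and -0.88, -0.46, -1.43 and -0.76 at the low dose. It gave -0.79, -1.51, -1.39, -1.13 and -1.22 at the medium dose and -1.57, -1.40, -1.28 and -1.48 in high-dose mice. Every exposed mouse lay below every vehicle mouse. Arntl alone of the 5 was called, and lower, at each dose, where 0.0251%, 0.447% and 0.805% of all probes were called lower from low to high dose. It fell by 1.04 (SE 0.18, limma adjusted p = 0.012), 1.37 (SE 0.17, adjusted p = 7.1e-05) and 1.59 (SE 0.18, adjusted p = 1.4e-05) on the log2 scale from low to high. The low-dose call was lost without low-dose mouse 9 (-0.86, adjusted p = 0.055), with scanner ratios (-1.37, adjusted p = 0.057), with median centring (-0.88, adjusted p = 0.9999) and when the other doses were left out of the limma fit (-1.04, adjusted p = 0.051). Clock (-0.42) and Rora (-0.36) were not called at the high dose. Rorb (-0.50) passed the adjusted p there (limma adjusted p = 0.0087) but not the fold limit, which it crossed with scanner ratios, and its other probe gave -0.20 (adjusted p = 0.43). Npas2, the partner that can stand in for CLOCK, was well above background in 5 of 5 vehicle mice, 2 of 4 low-dose mice and no medium- or high-dose mouse. By group mean, vehicle exceeded the medium dose by at least 1.31-fold and the high dose by at least 1.29-fold, bounds that were not tested. The probe was dim (Cy5 99.5 to 145 in vehicle and 90 to 107 in high-dose mice). Its lowest vehicle log2 ratio, 0.22, lay above the highest of the medium dose (0.15) but below that of the high dose (0.25). At the high dose Npas2 did not pass the adjusted p.

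The PAR bZIP factors, which bind D-boxes, moved together at the high dose. Dbp, a classic E-box target, was 4.65-fold higher (log2 fold change 2.22, SE 0.27, limma adjusted p = 4.6e-05), Tef rose by 0.95 (SE 0.16, adjusted p = 0.0013) and Hlf by 0.99 (SE 0.24, adjusted p = 0.019). Nfil3, which competes with them for the D-box as a repressor, fell by 0.82 (SE 0.11, adjusted p = 0.00018). All 4 genes of this list were thus called at the high dose, 3 higher and 1 lower. Of all probes, 0.399% were called higher and 0.805% lower there. At both lower doses Dbp and Tef were called higher and Nfil3 lower. The share of all probes called higher was 0.0647% at the low and 0.278% at the medium dose, and that called lower 0.0251% and 0.447%. The low-dose call of Tef was lost without vehicle mouse 1, 3 or 5 or low-dose mouse 6 or 9 (0.73 to 0.87, limma adjusted p = 0.058 to 0.14). The call of Hlf at the high dose was lost without vehicle mouse 1 or high-dose mouse 16, 17 or 20 (0.87 to 1.00, limma adjusted p = 0.053 to 0.060), and with scanner ratios (1.14, adjusted p = 0.072).

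Of 3 rhythmic output genes, Wee1, a kinase gene with E-boxes known to be read by the clock, rose by 0.94 (SE 0.11, limma adjusted p = 1.8e-05) and Usp2, a deubiquitinase, by 0.68 (SE 0.11, adjusted p = 0.0010) at the high dose, while Nampt stood at -0.08. Wee1 was also called at the medium dose (0.59, SE 0.10, limma adjusted p = 0.0016), just past the fold limit, and was under it without vehicle mouse 1, 4 or 5 or medium-dose mouse 12 or 15 (0.52 to 0.58). Proteins that govern the stability of PER and CRY (7 genes of casein kinase 1 and F-box subunits) had 0 called at any dose, and 1 of them, Csnk1e, had an unadjusted limma p of 0.05 or less at the high dose. Fbxl21 among them was not readable, its brightest probe being well above background on no array. Log2 fold changes of the 7 genes at the high dose ran from -0.09 to 0.24, read from the brightest probe of each. For Btrc the brighter probe had means of 1.31 in vehicle and 1.22 in high-dose mice, whereas the other had -0.04 and 0.36. The probes of Csnk1a1 also disagreed, the brighter giving 0.12 at the high dose and the other, with every high-dose mouse below every vehicle mouse, -0.51 (SE 0.08, limma adjusted p = 0.00049, under the fold limit). Of 4 corepressor genes of REV-ERB, 0 were called, and Tbl1x alone had an unadjusted p of 0.05 or less, with -0.38 under the high dose (limma adjusted p = 0.019, under the fold limit). Of 7 glucocorticoid-responsive genes, read because Per1 is one, 0 were called at any dose. Their log2 fold changes ran from -0.29 to 0.17 at the low dose, where Dusp1 (-0.29) had an unadjusted limma p of 0.044. They ran from -0.52 (Zbtb16) to 0.23 in medium-dose mice and from -0.11 to 0.19 in high-dose mice, with 0 at an unadjusted p of 0.05. Over all probes 0.0898%, 0.726% and 1.2% were called in either direction from low to high dose. With so few probes called, 0 calls in a list of 4 or 7 genes set no list apart.

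**Figure D4:**
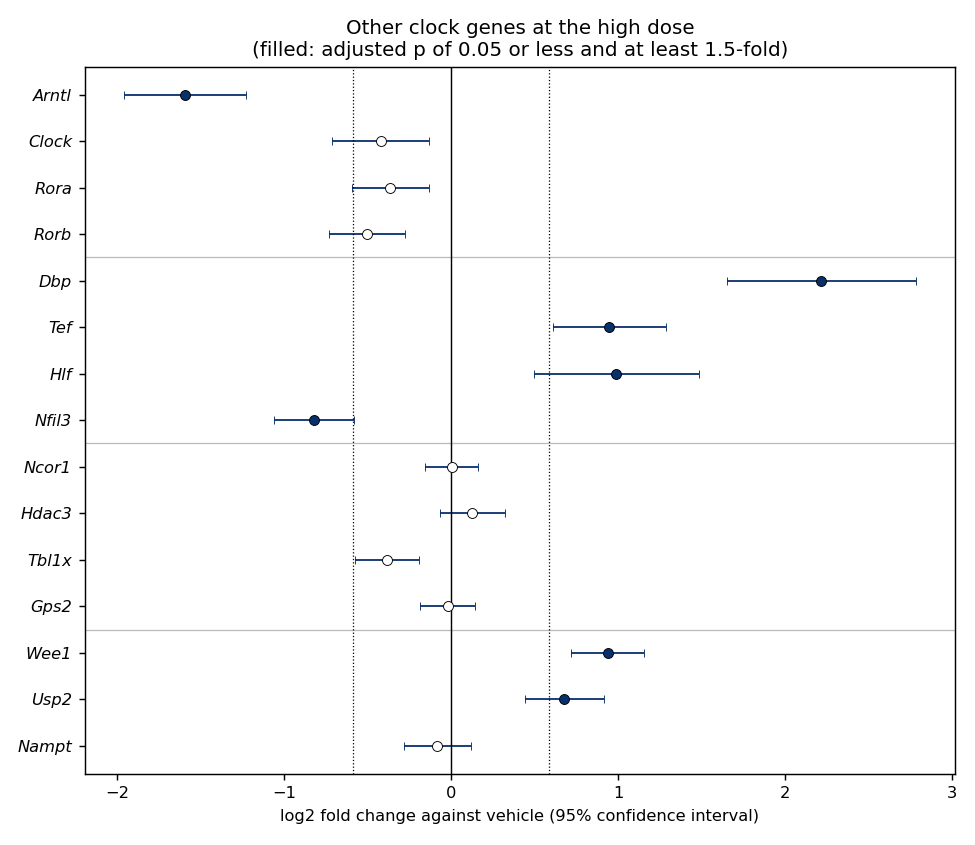
Log2 fold change at the high dose against vehicle (x axis) with its 95% confidence interval for 15 other clock genes, grouped from the top as activators, PAR bZIP factors with Nfil3, REV-ERB corepressors and rhythmic output genes. Filled points passed both limits and dotted lines mark 1.5-fold either way. Arntl (-1.59) and Dbp (2.22) stand farthest from 0, and the 4 corepressors are open.

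Marker genes of cell types were set beside these values. Over all probes 0.0898%, 0.726% and 1.2% were called in either direction from low to high dose. Of 10 lists of markers, 1 gene was called at any dose, Pecam1, an endothelial adhesion molecule, whose log2 fold change was 0.69 for the medium and 0.74 for the high dose (limma adjusted p = 0.00097 and 0.00060). The other endothelial markers, Cdh5 (-0.10) and Cldn5 (-0.19), did not share this at the high dose, and the mean log2 ratio of the 3 was 5.22 to 5.76 in vehicle and 5.59 to 5.78 in high-dose mice. The mean of the 4 leukocyte markers ran from 0.74 to 1.43 in vehicle, 1.11 to 1.47 in low-dose, 1.31 to 1.56 in medium-dose and 1.29 to 1.48 in high-dose mice, with the alveolar macrophage gene Marco at 1.25 at the high dose (SE 0.46, limma adjusted p = 0.15). The 4 alveolar type 1 markers, read from the brightest probe of each, were below vehicle at each dose, by -0.30 to -0.21 at the high dose. There Ager, Hopx and Aqp5 had an unadjusted limma p under 0.05 (adjusted p = 0.14, 0.22 and 0.23). Their mean log2 ratio was 3.93 to 4.22 in vehicle and 3.7 to 3.89 in high-dose mice. The other Aqp5 probe did not share this, with means of 3.48 in vehicle, 3.56 in low-dose, 3.52 in medium-dose and 3.46 in high-dose mice. The other probes of Hopx and Pdpn had means below vehicle at each dose. The 4 alveolar type 2 markers lay below vehicle in medium-dose (-0.36 to -0.18) and high-dose mice (-0.25 to -0.02), none of them called. The part of these markers in the clock repressor values was not tested.

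Whether the repressors followed Arntl from mouse to mouse was examined over the 13 exposed mice, with 10 relations (Cry1 among them) adjusted together and p-values from 100000 permutations. Mice were permuted without regard to dose, so these p-values also take in any course over dose that both genes share. The r after centring within dose groups leaves that course out, and no test was run on it. Nr1d2 was highest where Arntl was lowest (Pearson r = -0.88, permutation p = 9.0e-05, adjusted p = 0.00090, Spearman rho = -0.82, permutation p = 0.00085, adjusted p = 0.0085). Without the 2 mice farthest from the median of Nr1d2 its r was -0.84, after centring within slides -0.91 and after centring within dose groups -0.85. Per2 had r = -0.80 (permutation p = 0.00092, adjusted p = 0.0046, rho = -0.77, permutation p = 0.0030, adjusted p = 0.015), which fell to -0.57 without its 2 farthest mice, low-dose mouse 7 with the lowest Per2 and the least reduced Arntl being one, and then no longer passed. Per3 (r = -0.69, permutation p = 0.0092, adjusted p = 0.023, rho = -0.75, permutation p = 0.0046, adjusted p = 0.015) and Bhlhe40 (r = -0.74, permutation p = 0.0041, adjusted p = 0.014, rho = -0.62, permutation p = 0.029, adjusted p = 0.071) passed by r as well. Without their 2 farthest mice neither passed, r being -0.49 for Per3 and -0.67 for Bhlhe40 (permutation test, adjusted p = 0.30 and 0.12). For Bhlhe40 r itself changed little. Centred within slides the r of Per2 was -0.85, of Per3 -0.89 and of Bhlhe40 -0.75, and centred within dose groups -0.70, -0.65 and -0.58.

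The remaining 5 measured genes gave no relation that passed. For Nr1d1 r was -0.16 (permutation p = 0.59, adjusted p = 0.59, rho = -0.05) and for Per1 -0.25 (permutation p = 0.41, adjusted p = 0.52, rho = -0.09). Cry2 (-0.41), Bhlhe41 (-0.43) and Ciart (-0.46) had permutation p-values of 0.17, 0.14 and 0.11. Centred within dose groups r was -0.79 for Cry2, -0.45 for Nr1d1, -0.38 for Per1, -0.32 for Bhlhe41 and -0.28 for Ciart, given without a test. That Nr1d2 and Nr1d1 differ from each other in this relation was not tested. Both sides of each relation come from the same arrays, and with median centring in place of loess none passed, r being 0.05 for Nr1d2 and -0.13 for Per2.

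**Figure D5:**
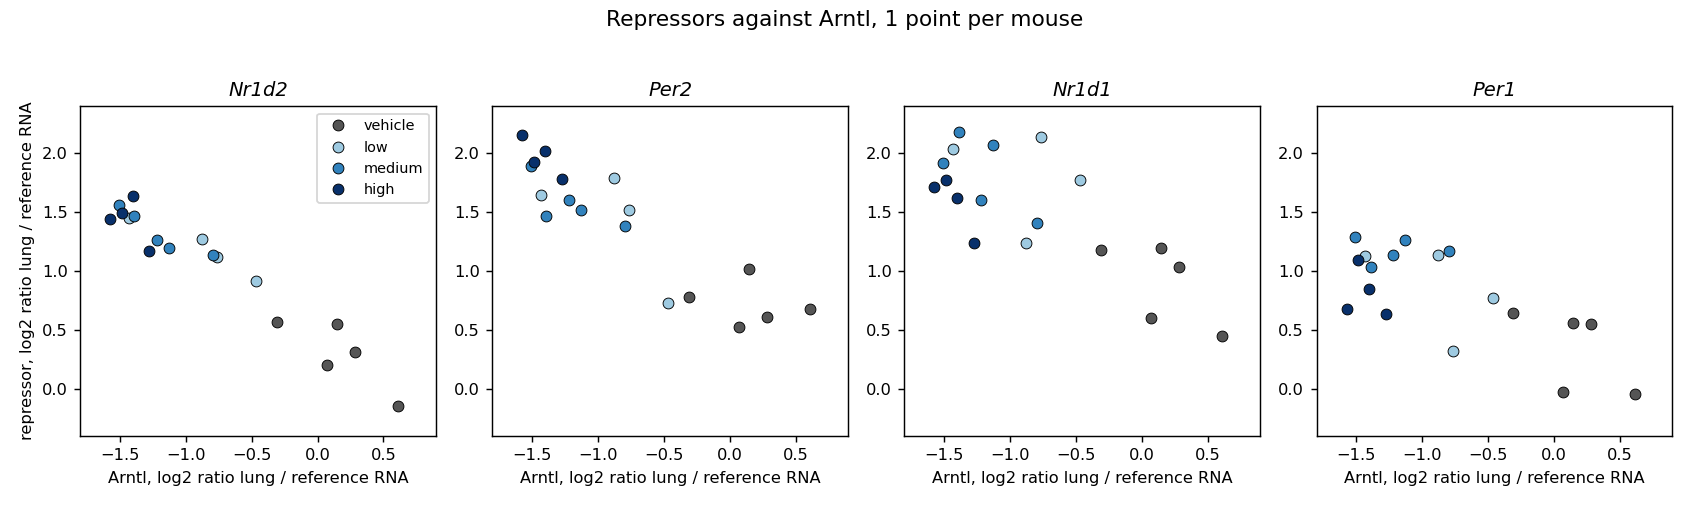
Log2 ratio of Nr1d2, Per2, Nr1d1 and Per1 (y axis) against that of Arntl (x axis), 1 point per mouse, coloured by group. Over the 13 exposed mice Nr1d2 falls along a line as Arntl rises (r = -0.88), and Nr1d1 shows no such line (r = -0.16).

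As a description, each clock repressor was also ranked against 13434 other genes by the correlation of its values over the 18 arrays after each group's mean was removed. The gene most like Nr1d2 was Dbp (r = 0.90), followed by Pkd2 and Zer1 (both 0.85), and Arntl stood at the opposite end, at rank 13431 (r = -0.83). Dbp was also first for Cry2 (r = 0.83). For Per2 and Per3 the first gene was Lonrf1 (r = 0.86 and 0.88), and Hlf (0.82), Lrrn3 (0.81), Nr1d2 (0.79) and Per2 (0.77) followed for Per3. For Nr1d1, Dbp stood at rank 10 (0.77) and Nr1d2 at rank 291 (0.58). Per1 was nearest to Setd7 (0.83), Bhlhe40 to Gmip (0.83), Bhlhe41 to Lpin3 (0.83) and Ciart to Bend7 (0.83), none of them a clock gene by name. The genes share the array, its labelling and its normalization in all of these values.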

How the data were processed

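Lung RNA of 18 mice was profiled on 2-colour Agilent arrays, 1 per mouse. Per the file headers, scans were read with Feature Extraction 11.0.1.1. The authors deposited median signal intensities of both channels and their background, not normalized, and the software's own log10 ratio of Cy5 over Cy3, background-subtracted and dye-normalized. A further deposited table holds normalized log2 ratios, whose columns had medians of -0.03 to -0.02 and correlated at 0.995 or above with the loess ratios of the same arrays.

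Following the study's methods, background was not subtracted, and log2 ratios of the medians were normalized by loess within arrays (limma 3.58.1 in R 4.3.3). Outlier spots (409 to 553 per array) and control spots were left out and spots of 1 probe averaged. All 4 groups were fitted together with limma and eBayes in place of the study's MAANOVA, which was not run, and p-values were adjusted over 55681 probes by Benjamini-Hochberg. Accessions gave 27235 probes a symbol through a RefSeq table of GRCm38, used for names only. The brightest probe stands for a gene. A gene was not readable where no array called it well above background. The fit was tested on simulated data, and precision is set by the number of arrays.

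The genes named were the 10 clock repressors, called members of the other lists, and the 3 genes most like each repressor. One activator and a gene most like Nr1d1 are not reported here. The members and lists were chosen with earlier results of these data known. Alternatives were normexp correction (offset 50), scanner ratios, the deposited table, median centring, scale and Aquantile normalization, Cy5 alone, the slide as a block, bright probes alone, only the groups compared, no fold limit, the mean of a gene's probes, and each mouse left out.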

Additional observations from a re-analysis of the deposited data

How the results depend on the processing

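No paired analysis was possible because no mouse number is shared between groups, and the slide, which held all 4 groups, was fitted as a block instead. Of 297 fold changes of the 9 measured repressors under 11 settings that kept all mice, 183 differed from the values given above, and 183 of these stayed above 0. Aquantile normalization, bright probes alone and only the groups compared leave fold changes as they are. Of the calls, median centring in place of loess left 0 repressors called with the low dose, 0 with the medium and 2 with the high, and 2 PAR bZIP genes (Dbp and Tef) and 0 rhythmic output genes at the high dose. The cause was not tested. The scanner software's ratios left 1 repressor at the low dose, and leaving out each mouse gave 1 to 3 there, the lowest count without low-dose mouse 9 and the highest without low-dose mouse 7 or medium-dose mouse 11. Without a fold limit 1 corepressor, Tbl1x, was called, and 2 activators (Arntl and Rorb) were called at the high dose both so and with scanner ratios. Over all probes the high dose called 670, against 1075 with scanner ratios, 80 with median centring and 2325 with no fold limit.

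Single genes moved across the limits as follows at the high dose. Nr1d1 was lost with scanner ratios (limma adjusted p = 0.099) and with Cy5 alone (adjusted p = 0.10), Bhlhe40 was gained with scanner ratios (0.66), the deposited table (0.59) and the slide as a block (0.61), and Bhlhe41 was gained and Hlf lost with scanner ratios (0.64 and 1.14). At the low dose Per3 was lost with scanner ratios (adjusted p = 0.11), Arntl and Tef were lost with scanner ratios (adjusted p = 0.057 and 0.066) and with only the groups compared (0.051 and 0.062), Nr1d1 was gained with the slide as a block (adjusted p = 0.045) and with bright probes alone (adjusted p = 0.049), and Ciart ranged from -0.00909 to 0.21 over the mice left out, below 0 without low-dose mouse 6. With median centring Arntl, Dbp, Tef and Nfil3 lost their low-dose calls and Tef, Nfil3 and Wee1 theirs at the medium dose, and Wee1 was also under the fold limit there with the deposited table, scale normalization and Cy5 alone (0.52 to 0.58). Cry1, too dim to be read, gave -0.0779 at the low and medium dose with scanner ratios.

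Paralog differences reversed where they were near 0. With median centring the medium dose gave 0.11 for Per1 less Per2, 0.0762 for Per1 less Per3 and 0.0893 for Bhlhe40 less Bhlhe41. With scanner ratios the low dose gave -0.0722 for Nr1d1 less Nr1d2 and -0.12 for Bhlhe40 less Bhlhe41, and the high dose passed at -0.98 and -0.55 as given above. With the mean of all probes Bhlhe40 less Bhlhe41 was -0.00444 at the low and 0.0123 at the medium dose.

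Relations to Arntl under median centring were 0.24 (Per1), -0.13 (Per2), 0.0248 (Per3), 0.48 (Cry2), 0.38 (Nr1d1), 0.0513 (Nr1d2), 0.17 (Bhlhe40), 0.33 (Bhlhe41) and 0.0141 (Ciart), none passing. Without the 2 farthest mice Per2 (-0.57), Per3 (-0.49) and Bhlhe40 (-0.67) no longer passed. In settings chosen after seeing the data, scanner ratios gave -0.67 for Bhlhe41 and -0.66 for Ciart, and Cy5 alone -0.69 for Bhlhe41, which then passed.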
